A study of Mus musculus with 4 samples.

Results

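IN3 is one of 12 inhibitory neuron subtypes that the authors named in single-nucleus RNA-seq of the developing mouse superior colliculus, the midbrain structure that turns visual and other sensory input into orienting movements. Its members were taken as every nucleus that the deposited nuclei table assigns to the subtype IN3. They number 469 of 9724 nuclei. The study sampled wild-type C57BL/6J mice at embryonic day 19 (E19) and at postnatal days 4, 8 and 21 (P4, P8 and P21), with no treatment at any stage. The tissue of several animals was pooled into 1 droplet library per stage. In the order E19, P4, P8 and P21, IN3 holds 67, 61, 215 and 126 nuclei, beside 826, 677, 873 and 614 nuclei of the other inhibitory subtypes. Where 4 values are given in a row below, they follow this order. Because a stage is a single library, age, pool and library cannot be told apart, and no test between stages is given. Intervals below are 95% intervals that cover counting error only. They are exact for levels and shares, and rest on a normal approximation for log2 ratios.

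Inhibitory neurons of the colliculus release GABA, which the enzymes Gad1 and Gad2 make and the vesicular transporter Slc32a1 loads into vesicles. They shape receptive fields in the upper, visual layers and gate motor output from the deeper layers. Midbrain GABA neurons take their identity from combinations of transcription factors, among them Meis2 and Otx2, and differ in the peptides, adhesion molecules and receptors they express.

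IN3 nuclei were shallow at the early stages. The median nucleus held 4465, 4742, 8001 and 15752.5 UMIs (counted transcript molecules), against 6285.5, 8037, 9755 and 13700 in the other inhibitory nuclei. Summed over nuclei, IN3 gave 302067, 316927, 1766332 and 1993183 UMIs. A count of 3 UMIs is therefore worth 9.93 CPM (UMIs of a gene per 1000000 UMIs of the summed nuclei) at E19 and 1.51 CPM at P21, so that low levels are known less well at E19 and P4. Levels are given as CPM of the summed UMIs, and no level is compared between genes, since CPM is not divided by gene length. Of all nuclei, 18 carried a barcode that also occurs in another library, and 0 of these were IN3. Ttr, a choroid plexus gene, stood at 0 CPM in IN3 at E19 and 136 CPM at P4, but in the P4 library it was found in every cell class, from 72.6 CPM in excitatory neurons to 662 CPM in astrocytes.

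The levels of the 4 given markers describe IN3 and are no check of the label, which came from clustering these same nuclei. All 4 were detected in IN3 at every stage, and in the other inhibitory neurons as well. Gad1 stood at 454, 492, 438 and 431 CPM in IN3 at E19, P4, P8 and P21, against 274, 250.1, 252 and 194 CPM in the other inhibitory neurons, and IN3 ranked first of the 12 subtypes in all 4 libraries. Gad2 did not mark IN3 within the class: its levels were 493, 524, 400.3 and 437 CPM against 560.3, 489, 453 and 351 CPM. Slc32a1, with 92.7, 53.6, 46.4 and 71.7 CPM in IN3, lay below the other inhibitory neurons at each stage, with log2 ratios from -0.74 to -0.14. Markers of other cell types were at a low level. The 3 vesicular glutamate transporters of excitatory neurons summed to between 9.53 and 53.6 CPM in IN3 and to between 13.4 and 49.7 CPM in the other inhibitory neurons, with Slc17a7 at 0 at E19 and Slc17a8 at 0 at P4. The 8 astrocyte markers summed to 199 to 290.4 CPM, against 4476 to 13813 CPM in astrocytes. Markers of the oligodendrocyte lineage went from 76.1 CPM at E19 to 347 CPM at P21 in IN3, and from 88.0 to 349 CPM in the other inhibitory neurons. The deposited table also carries 2 sets of reference labels. In the set headed Vectorseq, label 4 held 461 of the 469 IN3 nuclei, and 94.9% of all nuclei with that label were IN3. In the set headed Transseq, 85.9% of IN3 nuclei were labelled ISC5, but this label was broad: 19.3% of all nuclei that carry it were IN3, and it was given to 46.2 to 59.7% of other inhibitory nuclei per library.

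IN3 made up 7.50% of inhibitory neuron nuclei at E19 (interval 5.86 to 9.43%) and 8.27% at P4 (6.38 to 10.5%). At the later stages it made up 19.8% at P8 (17.4 to 22.3%) and 17.0% of the P21 inhibitory nuclei (14.4 to 19.9%). It was the fourth most frequent of the 12 subtypes at E19, the fifth at P4 and the first at P8 and P21. The intervals of the early pair of stages overlap each other, as do those of the late pair, and the early and late pairs do not overlap. Of all neurons IN3 was 3.00%, 3.14%, 11% and 8.86%, so the same order was seen with excitatory neurons in the denominator. IN1 was the largest subtype at E19 with 266 nuclei and at P4 with 205, and held 52 nuclei at P8. These are shares of captured nuclei, and dissection, capture and the pooling of animals could not be separated from age.

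**Figure D1:**
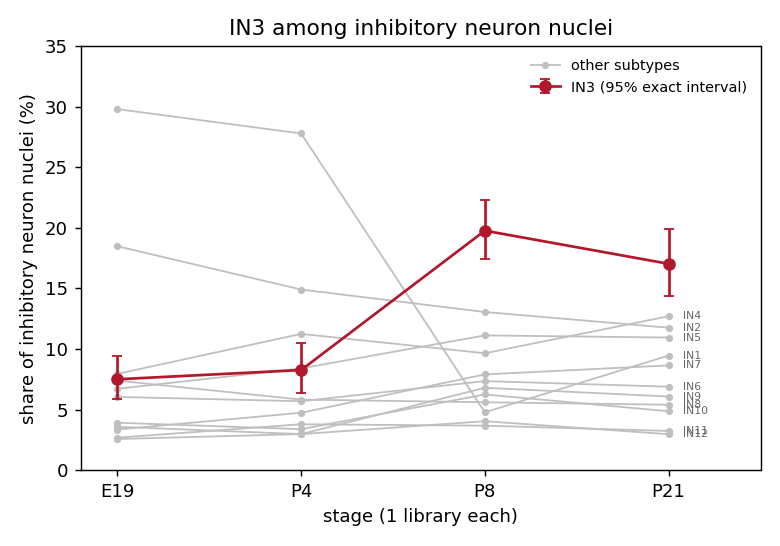
Share of inhibitory neuron nuclei (%, y axis) assigned to each of the 12 subtypes in the 1 library of each stage (x axis); IN3 is in red with exact 95% binomial intervals, the other subtypes are grey lines. IN3 lies at 7.50% and 8.27% at E19 and P4, and above every other subtype at P8 (19.8%) and P21 (17.0%).

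IN3 differed from the other inhibitory neurons by a transcription factor, a nitric oxide synthase adaptor, a secreted matrix protein and an RNA-binding protein, in every library. The subtype was defined by clustering these nuclei on these genes, so what follows describes IN3 and tests nothing. Throughout, a log2 ratio is taken on CPM with 5 CPM added to both sides, which understates ratios of low genes, and a gene counts as past the threshold at a log2 ratio of 1 in size, which is 2-fold. Of 6279 genes with at least 20 CPM in IN3 or in the others in each library, 63 (1%) were at least 2-fold higher in IN3 in all 4 libraries and 115 (1.83%) at least 2-fold lower. The 20 with the highest smallest ratio were Meis2, Nos1ap, Reln, Trpm3, Lhfp, Tmem108, Pcbp3, Mcc, Col25a1, AC129186.1, Adcy8, Adamtsl1, Itpr1, Hs3st3b1, Tspan5, Prkd1, Srgap2, Tmtc4, Cdh6 and Slc44a5. The last of these had a smallest log2 ratio of 1.54, and the next in line, Pard3b, Lmo4 and Tle4, of 1.53, 1.48 and 1.44. IN3 ranked first of the 12 subtypes in all 4 libraries for 16 of the 20. The exceptions were Lhfp and Slc44a5 at E19, Prkd1 at P4, P8 and P21, and Tmtc4 at P21.

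Meis2 (chr2:115863064-116065839, minus strand, GRCm38), a homeodomain transcription factor of the TALE class, stood at 2370.3, 1773, 1572 and 1433 CPM in IN3 at E19, P4, P8 and P21. In the other inhibitory neurons it was at 297, 172, 132 and 94.6 CPM. The next subtype was IN4 at every stage, with 1113, 845, 807 and 509 CPM. Meis2 thus declined with stage in both groups while the log2 ratio widened from 2.97 at E19 to 3.85 at P21. With each nucleus thinned to 2000 UMIs, Meis2 was found in 94.0% of IN3 nuclei at E19 and 84.9% at P21, against 24.1% and 13.8% of other inhibitory nuclei. Astrocytes also carried the gene, in 71.9% and 57.1% of nuclei. Otx2, a homeodomain factor of the midbrain, was the other of the 32 listed transcription factors counted that was at least 2-fold higher in all 4 libraries, at 411, 309, 361 and 213 CPM against 123, 91.3, 145 and 70.4 CPM. IN3 ranked first for Otx2 at P8 and P21, and below IN7 at E19 and P4, when IN7 was at 546 and 311 CPM.

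Nos1ap (chr1:170302668-170589861, minus strand), the adaptor that binds neuronal nitric oxide synthase, was at 1079, 1199, 1574 and 1114 CPM in IN3 and at 91.0, 95.9, 127 and 154 CPM in the other inhibitory neurons. The highest other subtypes were IN4 at E19 with 149.6 CPM, IN5 at P4 and P8 with 169 and 208 CPM, and IN6 at P21 with 259 CPM. Gm7694, a gene on the same strand, lies within its span, so reads there cannot be assigned with certainty. Prkg1, the cyclic GMP-dependent protein kinase, was also past the threshold at every stage, with 1768, 1751, 2396 and 2622 CPM against 700.4, 643, 688 and 739.9 CPM. The synthase itself, Nos1, was higher in IN3 at P21 (75.3 against 32.8 CPM), when IN3 ranked first for it. At E19 it was at 13.2 against 32.3 CPM. That IN3 value lies near the 9.93 CPM of 3 UMIs, so no direction is read from it. Of 13 genes of nitric oxide and cyclic GMP signalling that could be counted, 2 were higher (Nos1ap and Prkg1) and 1 lower (Pde1a, a phosphodiesterase) in all 4 libraries. Over all genes the shares were 1% and 1.83%. Nos1ap is itself a given marker of IN3, so its place among the higher genes is no finding about the list.

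Reln, the secreted glycoprotein reelin that guides neuronal positioning, was at 904, 1079, 1282 and 1438 CPM in IN3. In the other inhibitory neurons it declined over the same stages, at 142, 133, 83.0 and 63.8 CPM. Pcbp3 (chr10:76761857-76961887, minus strand), a poly(C)-binding RNA-binding protein, was at 440.3, 713, 1132 and 1957 CPM in IN3 and at 85.7, 91.9, 102 and 142 CPM in the others. The 4 Pcbp3 values of IN3 rise with stage and their intervals do not overlap. After thinning, Pcbp3 was found in 46.3%, 60.7%, 77.2% and 87.3% of IN3 nuclei, and at P21 in 23.8% of other inhibitory nuclei and 12.2% of astrocytes. Its paralogue Pcbp2 was close in both groups, with 136, 114, 101 and 129.9 CPM against 106, 103, 96.6 and 111 CPM. Of 26 neuronal RNA-binding proteins counted, Pcbp3 alone was past the threshold upward in all 4 libraries and Elavl2 alone downward. The shares over all genes were 1% and 1.83%, and Pcbp3 is again a given marker of IN3.

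Trpm3, a calcium-permeable channel, was at 8392, 11340.2, 13493 and 7573 CPM in IN3 and at 1491, 1482, 1768 and 1003 CPM in the other inhibitory neurons. Itpr1, the calcium release channel of the endoplasmic reticulum, was at 387, 344, 429 and 781 CPM against 47.2, 60.9, 87.8 and 195 CPM, and Adcy8, a calcium-stimulated adenylyl cyclase, at 996, 1379, 1790.2 and 1485 CPM against 219.6, 266, 420.4 and 332 CPM. Col25a1, a transmembrane collagen, declined at each stage in IN3, from 4747 CPM at E19 through 3408 and 3079.8 to 1254 CPM at P21. The others were at 292, 402, 487 and 264 CPM. Adamtsl1, a secreted matrix protein, moved apart from the rest: IN3 went from 450.2 CPM at E19 to 1044 CPM at P21 and the others from 103 to 33.6 CPM. Sh3gl2 overlaps Adamtsl1 on the same strand. Among the 20 genes, IN4 was the next subtype for 10, 5, 6 and 6, and IN12, with only 22 nuclei, for 6 at P21.

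**Figure D2:**
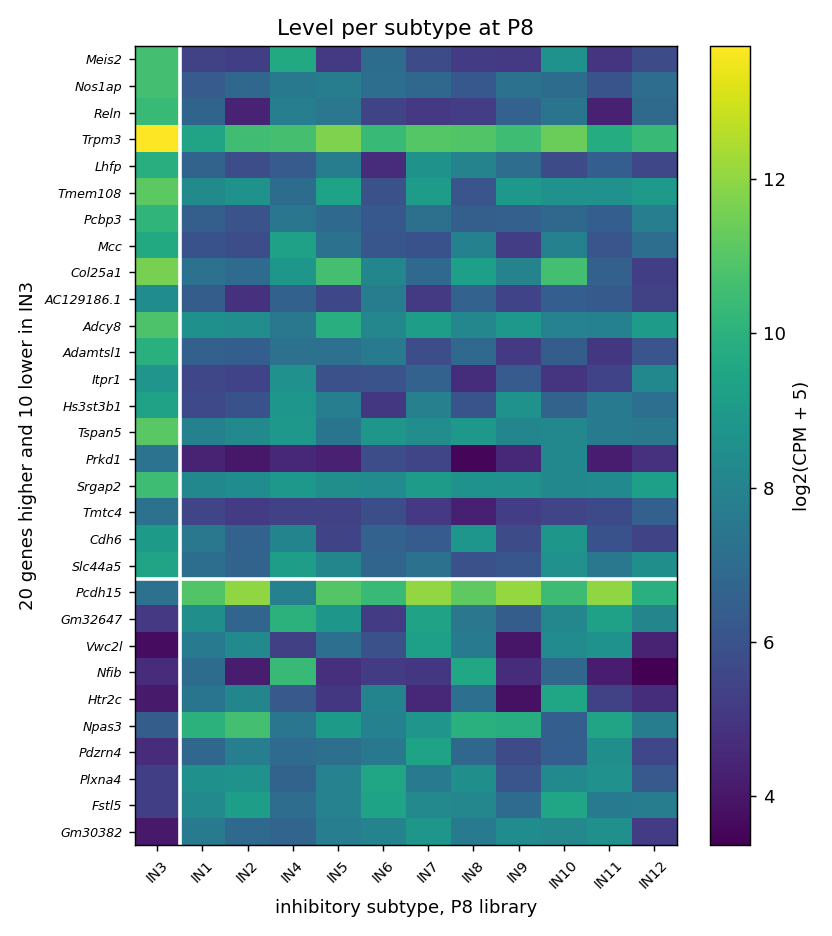
Heat map of log2(CPM + 5) in the P8 library for the 20 genes with the highest and the 10 with the lowest ratio of IN3 to other inhibitory neurons (rows) in the 12 inhibitory subtypes (columns, IN3 first). IN3 is the brightest column for 19 of the 20 upper genes, with Prkd1 brighter in IN10. It is a dark column for the 10 lower genes and the lowest for 8, the exceptions being Nfib and Htr2c. Nfib is also low in several other subtypes.

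The 10 genes lowest in IN3 were Pcdh15, Gm32647, Vwc2l, Nfib, Htr2c, Npas3, Pdzrn4, Plxna4, Fstl5 and Gm30382. IN3 ranked last of the 12 subtypes for 5, 5, 8 and 6 of them. It was not last for Htr2c in any library, and for Nfib only at E19. Pcdh15, a protocadherin, was at 152, 183, 146 and 108 CPM in IN3, the last of the 12 subtypes in every library, against 2003, 2352, 2665 and 2096 CPM in the other inhibitory neurons. Nfib, a nuclear factor I transcription factor, was at 26.5, 28.4, 20.9 and 12 CPM against 417, 233, 203 and 210.1 CPM, but much of the latter came from IN4, with 2781 CPM at E19. Plxna4, a semaphorin receptor, lay further below the others at P21 than at E19, at 72.8, 44.2, 34 and 20.6 CPM against 459.8, 407, 312 and 333 CPM. The gap did not widen from P4 to P8. Htr2c, a serotonin receptor, was at 16.6, 22.1, 12.5 and 69.2 CPM in IN3 against 136, 213, 168 and 612 CPM. Between P8 and P21 it rose in both groups, with log2 ratios of 2.09 and 1.83.

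The gene lists described next, like those above, were written with earlier results of these data known. Each count is read against the 1% higher and 1.83% lower of all genes. None of the 6 genes of GABA synthesis, packaging and uptake was past the threshold in all 4 libraries. Of 6 neuropeptide and granin genes counted, Tac1, the substance P precursor, was higher in every library, at 169, 126, 117 and 52.2 CPM against 23.7, 18.1, 10.5 and 5.91 CPM, with IN3 first of the 12 subtypes each time. Among 5 calcium-binding and other interneuron marker genes counted, Reln was higher and Nxph1 lower. Of 32 transcription factors counted, 2 were higher (Meis2 and Otx2) and 6 lower (Pax3, Tfap2b, Nfib, Ebf1, Ebf3 and St18). Tfap2b, for example, was at 79.5, 50.5, 23.8 and 4.01 CPM in IN3 against 374, 217, 306 and 105 CPM.

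Genes that organise synapses went both ways in IN3. Of 53 counted, 4 were higher in all 4 libraries and 6 lower. The higher ones were Cbln4 and C1ql3, secreted proteins that bridge synapses, the adhesion receptor Adgrb1 and the immunoglobulin protein Igsf21. Cbln4 was at 215, 91.5, 101 and 36.6 CPM in IN3 against 18.4, 16.1, 13.5 and 6.87 CPM, and C1ql3 at 59.6, 66.3, 35.1 and 33.6 CPM against 1.24, 2.80, 4.72 and 2.47 CPM. Adgrb1 stood at 314, 590.0, 678 and 638 CPM in IN3 and at 148, 140.3, 123 and 153 CPM in the others. The lower ones were Nlgn1, Lrrtm3, Il1rapl2, Adgrb3, Nxph1 and Lgi1. Nlgn1, the postsynaptic neuroligin of excitatory synapses, was at 738, 1126, 1146 and 1155 CPM against 2814, 3147, 2829 and 2911 CPM.

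In axon guidance, 2 of 52 genes were higher (the semaphorin receptor Nrp2 and the ligand Slit2) and 7 lower (Efna5, Epha5, Sema5b, Plxna2, Plxna4, Slit3 and Robo1). The ephrin Efna5 stood at 106, 101, 79.8 and 64.7 CPM in IN3 against 714, 495, 535 and 391 CPM, the last of the 12 subtypes in each library, as was its receptor Epha5. The ligand Slit2 was at 662, 644, 635 and 483 CPM against 239.6, 278, 249 and 217 CPM, while its receptor Robo1 was at least 2-fold lower throughout. Of 50 cadherins, contactins and other adhesion genes, Cdh6 was higher and 8 were lower (Cdh7, Cdh11, Pcdh15, Cntnap5c, Sdk1, Sdk2, Kirrel3 and Fstl5). The median log2 ratio of that list was -0.48, beside a median near 0 over all genes counted.

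The channel and receptor genes described next that were past the threshold in all 4 libraries were lower in IN3. Over all genes 1% were higher and 1.83% lower, so 0 higher in lists of this length is near the share of all genes. Trpm3 and Itpr1, channels that were higher in IN3, are not in these lists. Of 33 potassium channel genes, 0 were higher and 2 lower (Kcnd3 and its auxiliary subunit Dpp10). Of 31 sodium, calcium and HCN channel genes, 0 were higher and 3 lower (Scn1a, Scn9a and Cacna2d3). Gabrg3, a GABA-A receptor subunit, was at 89.4, 233, 216 and 87.8 CPM in IN3 against 615, 951, 1033 and 969.7 CPM, and IN3 was the last of the 12 subtypes in all 4 libraries. One glutamate receptor of 22, Grik3, and 3 of 13 acetylcholine, monoamine, opioid and cannabinoid receptors, Htr1f, Htr2c and Oprm1, were lower, and 0 of either list higher.

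**Figure D3:**
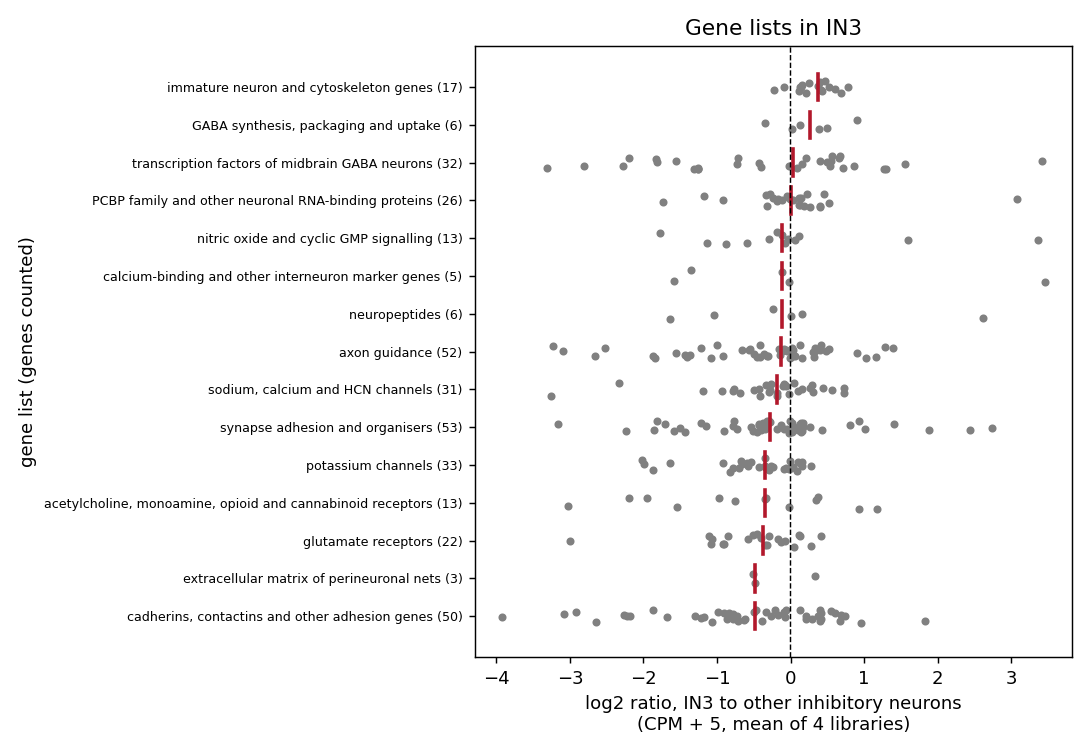
Mean over the 4 libraries of the log2 ratio of IN3 to other inhibitory neurons (x axis, CPM + 5) for the genes of each list plotted (y axis, number of genes counted in brackets; marker lists of other cell types are not plotted); grey points are genes, red bars list medians, the dashed line the median of all genes counted. The plotted medians run from -0.48 for adhesion genes to 0.38 for immature neuron genes, and single genes such as Nos1ap, Meis2, Reln and Pcbp3 stand far to the right of their lists.

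By the correlation of log2(CPM + 5) across genes, the nearest of the compared subtypes to IN3 was IN5 in all 4 libraries, with r of 0.879 over 9453 genes at E19 and of 0.889, 0.926 and 0.905 in the postnatal libraries in order of age. The second was IN2 at E19 with 0.877, IN1 at P4 with 0.882, and IN4 at P8 and P21 with 0.914 and 0.898. The first and second subtypes thus lay within 0.01 of each other at E19, P4 and P21, but not at P8. Genes are not independent, and the compared subtypes share a library and differ in depth, so the order is a description only. Subtypes with under 25 nuclei in a library were not compared, which were IN11 and IN12 at E19 and P21 and IN9 and IN12 at P4. The median r of IN3 to the compared subtypes was 0.861, 0.861, 0.897 and 0.873, and the median over the pairs without IN3 was 0.855, 0.878, 0.903 and 0.903. IN3 was thus slightly above the other pairs at E19 and below them at P4, P8 and P21.

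Between stages, the step from P8 to P21 held the most genes past the threshold in IN3. For each step, genes with at least 100 CPM at the higher stage were counted. From E19 to P4, 80 of 2354 genes (3.4%) were at least 2-fold higher at the later stage and 70 (2.97%) at least 2-fold lower. From P4 to P8 it was 20 of 2167 (0.923%) and 65 (3%), and from P8 to P21 it was 99 of 2149 (4.61%) and 106 (4.93%). The other inhibitory neurons, with far more UMIs behind each level, had 0.282% and 0.847%, 0.147% and 0.638%, and 2.81% and 2.86% past the same threshold. With every nucleus thinned to 2000 UMIs the order turned, with 163 and 170 genes past the threshold from E19 to P4 and 155 and 148 from P8 to P21. Whether fewer IN3 UMIs at E19 and P4 account for the larger shares was not tested. The subtype mix of the other inhibitory neurons also differed between stages, and its part in their changes was not tested. The median gene shifted by -0.125 from P4 to P8 on the log2 scale, and by less than 0.1 in size over the other consecutive steps.

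Genes of 3 receptors, Gabrr2, Npsr1 and Chrnb3, rose from near 0 between P8 and P21 in IN3, and by far less in the other inhibitory neurons summed. Gabrr2 (chr4:33062999-33095865, plus strand) encodes a rho subunit of GABA-A receptors, which open slowly and desensitise little. In IN3 it was at 3.31, 0 and 12.5 CPM in the first 3 stages and at 328 CPM at P21 (interval 303 to 354), the last from 653 UMIs. The other inhibitory neurons were at 1.24, 0.988, 1.29 and 4.73 CPM, and the highest other subtype at P21 was IN12 with 41.6 CPM from 22 nuclei. The log2 ratio from P8 to P21 was 4.25 in IN3 and 0.63 in the others. After thinning, 30.2% of IN3 nuclei at P21 had a Gabrr2 UMI (interval 22.3 to 39.0%), against 2.79% at P8, 0.977% of other inhibitory nuclei and 1.39% of astrocytes at P21. Without thinning the shares at P21 were 62.7%, 4.40% and 3.48%, at median depths of 15752.5, 13700 and 5525 UMIs. Its neighbour Gabrr1 stayed low in IN3, at 6.62, 9.47, 11.9 and 15.1 CPM.

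Npsr1 (chr9:24097996-24316398, plus strand), the receptor of neuropeptide S, was at 0, 22.1, 8.49 and 351 CPM in IN3 and at 2.12, 8.07, 13 and 42.0 CPM in the others. The next subtype at P21 was IN5, with 101 CPM. An antisense gene, Gm15600, overlaps Npsr1, and whether the counting used strand is not given in the sources used here. After thinning, 26.2% of IN3 nuclei at P21 had a UMI of Npsr1, against 3.09% of other inhibitory nuclei and 2.79% of astrocytes. Chrnb3 (chr8:27368711-27399730, plus strand), a beta subunit of nicotinic acetylcholine receptors, was at 0, 0, 3.4 and 101 CPM against 0, 0.659, 0.751 and 2.90 CPM, and was found in 11.1% of thinned IN3 nuclei at P21 and in 0.163% of the others. It was in 0 of 61 thinned IN3 nuclei at P4, whose exact interval reaches 5.87%. Chrna6, the alpha subunit that assembles with it and lies beside it in the genome, was chosen after its values were seen. It was at 0, 6.31, 8.49 and 35.1 CPM against 0.353, 0.824, 0.966 and 2.79 CPM. IN12 was at 37.5 CPM at P21, but its 22 nuclei are too few to rank it against IN3.

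**Figure D4:**
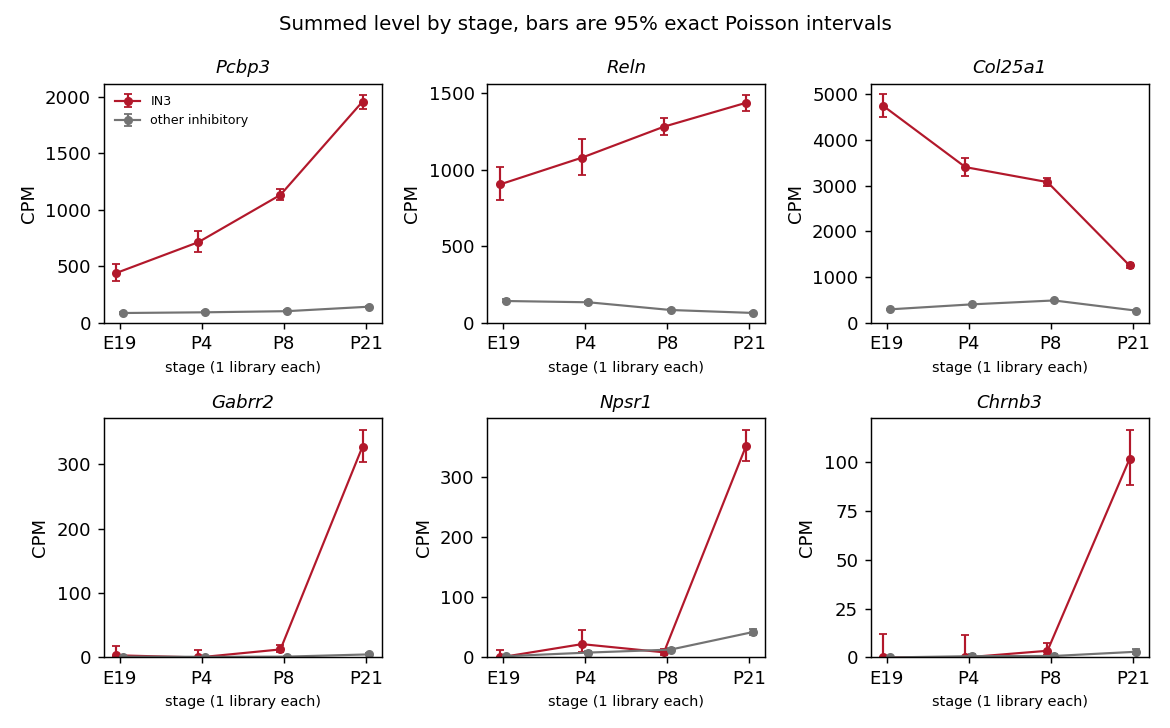
CPM (y axis, linear from 0) of 6 genes in IN3 (red) and in the other inhibitory neurons (grey) in the library of each stage (x axis), with exact 95% Poisson intervals. Pcbp3 and Reln climb with stage in IN3 and Col25a1 declines, while Gabrr2, Npsr1 and Chrnb3 lie near 0 until P8 and reach 328, 351 and 101 CPM at P21.

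The remaining 3 of the 6 largest rises from P8 to P21 in IN3 were Fmn1, BC030499 and Pcgf5. Like Npsr1, they were past the threshold in the other inhibitory neurons too. BC030499 went from 1.13 to 101 CPM in IN3 and from 1.93 to 70.7 CPM in the others, and Pcgf5, a Polycomb group protein, from 6.79 to 132 CPM and from 17.5 to 116 CPM. Rasgrf1, a calcium-responsive activator of Ras, went from 45.9 to 518 CPM in IN3 and from 97.3 to 519.8 CPM in the others. Fmn1, an actin-nucleating formin, went from 2.83 to 156 CPM, and in the others from 9.02 to 57.8 CPM. The falls were led by genes of immature neurons: Tubb2b, a tubulin of growing neurites, went from 1116 CPM at E19 through 732 and 229 to 4.01 CPM at P21, and in the others from 867 through 422 and 182 to 5.16 CPM. Of 16 counted genes of immature neurons and the cytoskeleton, 13 fell at least 2-fold from P8 to P21 and 0 rose, beside 4.93% and 4.61% of all genes. Their median log2 ratio was -1.59 in IN3 and -1.57 in the other inhibitory neurons, so this decline was of like size in both groups.

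Without thinning, the earlier steps held fewer genes past the threshold, an order that turned for E19 to P4 after thinning. From E19 to P4 the largest rises in IN3 were Ttr, Dync1i1, AC149090.1, Wscd2, Ccdc141 and AY036118. Ttr rose in every class of the P4 library, as described above. Dync1i1, a subunit of the dynein motor, went from 16.6 to 114 CPM and in the others from 100.2 to 205 CPM. Ccdc141 went from 23.2 to 114 CPM in IN3, and from 16.6 to 23.9 CPM in the others. The largest falls were Cd24a, Igf2bp3, Tmtc2, Adgrl2, Prkd1 and Foxp4. Foxp4, a forkhead transcription factor, was at 258 CPM at E19 and 78.9 CPM at P4 in IN3, while the others were at 38.3 and 31.1 CPM. From P4 to P8 the largest rises were Gm28928, Synpr, Etl4, Parm1, Tmtc2 and Mctp1. Synpr, a synaptic vesicle protein, climbed at each stage of IN3, at 16.6, 72.6, 215 and 411 CPM, while the others stood at 91.4, 107, 183 and 189.6 CPM. The largest falls of that step were Ttr, Tcf7l2, Nrep, Tubb2b, Tubb5 and Tmsb10. Tcf7l2, a transcription factor of the Wnt pathway, went from 107 to 20.4 CPM in IN3 and from 349 to 27.9 CPM in the others.

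Set against the other inhibitory neurons over P4 to P21, the genes that moved up more in IN3 were Gabrr2, Chrnb3, Hs3st2, Mical2 and Pcgf5, and those that moved down more were Hs3st3a1, Fgf13, Ankfn1, Ptprz1 and Sv2c. Gabrr2, Chrnb3, Mical2 and Pcgf5 had 0 UMIs in IN3 at P4. Set against a chosen floor of 3 UMIs over the group at P4, their P21 level was 34.6-fold, 10.7-fold, 12.2-fold and 14.0-fold higher. Hs3st2 and Hs3st3a1 encode heparan sulfate 3-O-sulfotransferases, which modify the sugar chains of cell-surface proteoglycans. Hs3st2 was at 6.62, 31.6, 49.8 and 138 CPM in IN3 and at 41.9, 64.1, 59.8 and 29.1 CPM in the others. Hs3st3a1 was at 136, 104, 122 and 33.1 CPM in IN3 and at 15.0, 11.9, 28.6 and 19.7 CPM in the others. Its close relative Hs3st3b1, among the 20 leading genes, was at 689, 745, 632 and 374 CPM against 115, 106, 159 and 84.6 CPM. Other members of the family, looked up after these values were seen, were Hs3st4, with 218 CPM at P4 and 294 CPM at P21 in IN3, and Hs3st5, with 432 and 363 CPM. Hs3st3b1 and Hs3st3a1 were thus higher in IN3 than in the other inhibitory neurons at all 4 stages, and Hs3st2 at P21 but not at E19, P4 or P8.

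**Figure D5:**
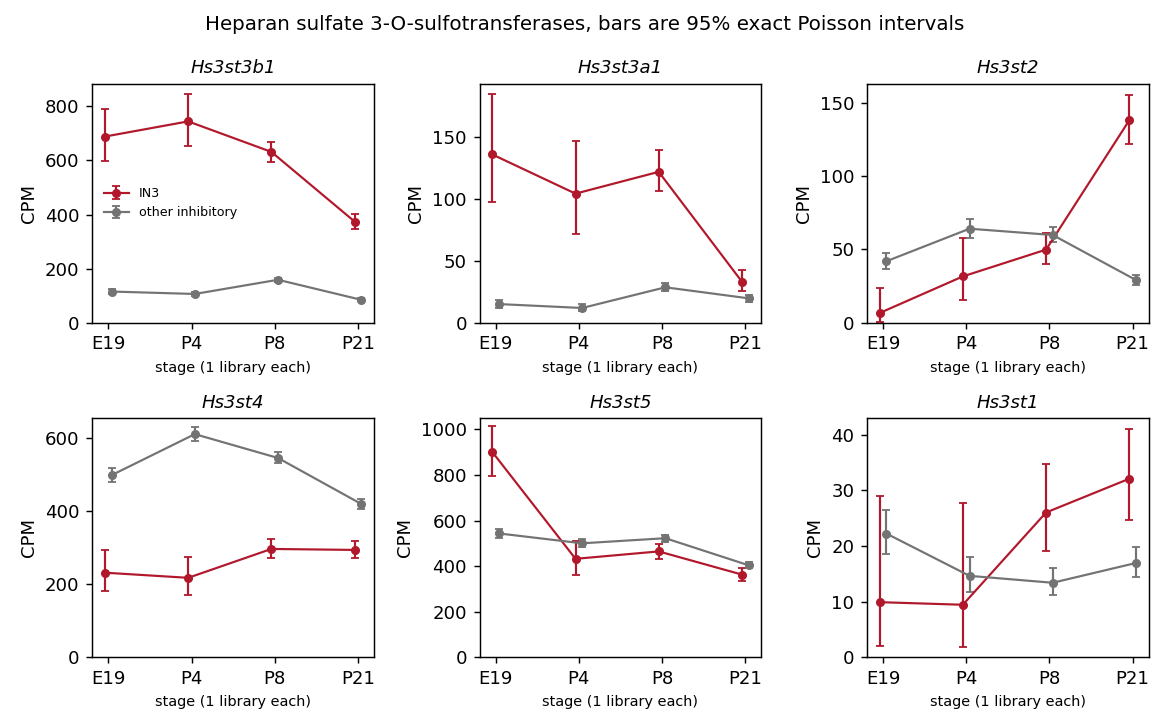
CPM (y axis, linear from 0) of 6 heparan sulfate 3-O-sulfotransferase genes by stage (x axis) in IN3 (red) and in the other inhibitory neurons (grey), with exact 95% Poisson intervals. Hs3st3a1 is higher in IN3 than in the others at all 4 stages and comes down to 33.1 CPM, against 19.7 CPM, at P21, and Hs3st2 reaches 138 CPM in IN3 at P21, above the 29.1 CPM of the others.

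IN3 nuclei also differed among themselves. In the P8 library, which has most IN3 nuclei, the genes with the largest variance relative to the mean after thinning were Pcdh9, Trpm3, Rbfox1, Otx2os1, Kcnip4, Lrrtm4, Galntl6 and Prkg1, with ratios from 5.87 to 17.8 beside a median of 1.14 over 1186 genes. Pcdh9, a protocadherin, had a median of 5 UMIs per thinned nucleus and went from 1 UMI at the tenth percentile to 26 at the ninetieth. Lrrtm4, a synaptic organiser, was found in 49.8% of the nuclei. Rank correlations across IN3 nuclei were computed for 33 genes, the 8 above, the 20 leading ones and others picked after values were seen (Cdh4, Gabrr2, Npsr1, Chrnb3, Otx2 and Tac1), at P8 (215 nuclei) and P21 (126 nuclei). Of 528 pairs, 8 had a Spearman's rho of at least 0.4 in size and the same sign at both stages. Rbfox1 rose and fell with Cdh4, at rho 0.52 and 0.62. Pcdh9 ran against Lhfp (-0.58 and -0.47) and against Adamtsl1 (-0.49 and -0.47), and Kcnip4 ran with Col25a1 (0.49 and 0.46). At P21 Gabrr2 ran with Reln (0.36) and against Pcdh9 (-0.48), and not with Npsr1 (-0.06). The median size of rho over all pairs was 0.10 at P8 and 0.12 at P21. Nuclei of 1 library share depth and free RNA and are not replicates, so no p-value is given.

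The promoters of 3 genes are shown because the genes set IN3 apart at all stages (Nos1ap) or at P21 (Gabrr2 and Npsr1), each 250 bases before to 50 after a RefSeq transcription start, build GRCm38.p6, 5′ to 3′ on the gene's strand. Capitals mark a match to TGACAG, a core of Meis sites, or TAATCC, a core of Otx2 sites, on either strand. The 2 motifs were searched separately and no window below holds both. Nos1ap has 2 windows in the table. The one shown, chr1:170589800-170590099, minus strand, holds a match, and the other, chr1:170557061-170557360, holds neither motif. Gabrr2 is chr4:33062862-33063161, plus strand, and Npsr1 is chr9:24097768-24098067, plus strand.
Nos1ap: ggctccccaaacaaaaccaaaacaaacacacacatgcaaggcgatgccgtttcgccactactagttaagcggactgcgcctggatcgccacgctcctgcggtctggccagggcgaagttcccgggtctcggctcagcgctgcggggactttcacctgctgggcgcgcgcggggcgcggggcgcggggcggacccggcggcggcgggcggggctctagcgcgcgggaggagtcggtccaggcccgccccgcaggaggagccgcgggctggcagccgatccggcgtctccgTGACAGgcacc
Gabrr2: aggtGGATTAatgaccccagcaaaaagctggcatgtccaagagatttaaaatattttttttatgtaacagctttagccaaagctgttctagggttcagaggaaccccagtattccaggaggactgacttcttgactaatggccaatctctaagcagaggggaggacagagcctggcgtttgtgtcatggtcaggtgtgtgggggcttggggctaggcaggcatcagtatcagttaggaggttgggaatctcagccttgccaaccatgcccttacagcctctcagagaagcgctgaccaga
Npsr1: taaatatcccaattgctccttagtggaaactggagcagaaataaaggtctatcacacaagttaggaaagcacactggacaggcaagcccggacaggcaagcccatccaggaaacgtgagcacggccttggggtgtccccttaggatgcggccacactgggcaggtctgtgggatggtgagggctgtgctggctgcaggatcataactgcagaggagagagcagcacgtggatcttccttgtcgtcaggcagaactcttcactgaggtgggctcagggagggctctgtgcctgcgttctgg
The Nos1ap window shown holds 1 TGACAG and Gabrr2 1 TAATCC, read on the opposite strand, and Npsr1 neither. Of 18 windows of 14 leading genes found in the table, 2 (11.1%) held TGACAG, beside 19.2% of 32851 promoter windows of the genome. TAATCC was in 0 of the 18, beside 7.06%. A match is no evidence of binding.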

How the data were processed

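Nuclei of the superior colliculus were profiled with 10x Genomics 3′ v3 chemistry in 1 library per stage. Per the labels, the authors processed reads with Cell Ranger 3.0.2 against a pre-mRNA reference made from mm10; for the annotation release, filters, doublet removal and clustering, details are not given in the sources used here. A deposited matrix holds raw UMI counts of 31053 genes in 9724 nuclei. The percent of mitochondrial and ribosomal UMIs per nucleus was also deposited by the authors, and stage, class and subtype were taken from the same table, of which 4 numeric columns were not used. Totals recomputed from the matrix matched the deposited ones in all 9724 nuclei.

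UMI counts were summed per library and group and scaled to CPM, counts per 1000000 (Python 3.11.15, numpy 2.4.6, scipy 1.17.1, pandas 2.3.3). Log2 ratios used CPM + 5. Genes needed 20 CPM in either group to be counted against other inhibitory neurons, and 100 CPM at the higher stage to be counted for a step. Poisson and Clopper-Pearson intervals are exact, at 95%. Per-nucleus shares used nuclei thinned to 2000 UMIs, which dropped 0 nuclei. Gene positions come from GENCODE M21 (GRCm38), with 99.9% of identifiers matched, and promoters from RefSeq (GRCm38.p6). No further doublet caller was run; 1, 2, 6 and 3 IN3 nuclei at E19, P4, P8 and P21 held at least 2 UMIs of excitatory neuron genes.

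The named genes are the 20 highest and 10 lowest by the ratio held in every library (at least 100 CPM), the 6 largest rises and falls per step, the 5 each way that differ most from other inhibitory neurons, up to 3 each way per list, the 8 most variable genes, and the markers. Mitochondrial, ribosomal protein, haemoglobin and sex-chromosome dosage genes were kept out of rankings. The members and gene lists were chosen with earlier results of these data known. The summing and counting steps were tested on simulated data. With 1 library per stage no test was made. Of the 30 leading genes, 2 overlap another counted gene on the same strand and 16 on the opposite strand, where reads may be shared. The count for 1 gene list is not reported here.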

Additional observations from a re-analysis of the deposited data

Results flagged for a closer look

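For 2 genes the change from P4 to P21 ran in opposite directions in IN3 and in the other inhibitory neurons of the same libraries, and the difference was not tested. Hs3st2 had a log2 ratio of 1.97 in IN3 (approximate interval 1.18 to 2.76) and -1.02 in the others. Hs3st3a1 had a log2 ratio of -1.52 in IN3 (approximate interval -2.08 to -0.96) and 0.55 in the others. Both genes encode heparan sulfate 3-O-sulfotransferases, and both were among the 10 genes chosen for differing most between the groups, so that the contrast is in part a result of that choice. The P4 levels in IN3 rest on 10 UMIs of Hs3st2 and 33 UMIs of Hs3st3a1. The subtype mix of the others also differed, with IN1 at 205 of 677 nuclei at P4 and 70 of 614 at P21. Its part in their changes was not tested.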

How the results depend on the processing

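The counts of genes higher or lower in IN3 than in other inhibitory neurons in all 4 libraries stayed within 1.5 times under every alternative (49 to 70 and 93 to 142), as did the shares of IN3. Counts between stages moved more. Thinning every nucleus to 2000 UMIs gave 163 rises and 170 falls from E19 to P4, 53 and 133 from P4 to P8, and 155 rises from P8 to P21. From P4 to P8, median-of-ratios scaling gave 31 rises and 40 falls, and a pseudocount of 20 CPM gave 42 falls. The split of rises and falls from P4 to P8 thus depends on scaling, being 20 to 65 by CPM and 31 to 40 by median of ratios. Alternatives for single genes were run on the smallest ratio, in size, that each of the 20 higher and 10 lower genes held over the 4 libraries, on 54 changes of named genes between stages in IN3, and on the 10 differences in change from the other inhibitory neurons. None of these changed sign under pseudocount, nucleus weighting, thinning, median of ratios or removal of nuclei with excitatory UMIs, and neither did the smallest ratios of the 30 genes with equal weight per subtype, which was not run on changes between stages. The smallest ratio stayed between 1.26 and 3.09 on the log2 scale for the higher genes and between -3.73 and -1.56 for the lower genes. The size of changes between stages in IN3 held less well than their sign. After thinning, Synpr and Nrep were no longer past the 2-fold threshold from P4 to P8, with log2 ratios of 0.869 and -0.967. Sv2c was likewise below it from P4 to P21 after thinning, with -0.273. Other named genes were not recomputed. Depth limits low genes at E19 and P4, where 3 UMIs are worth 9.93 and 9.47 CPM. No paired analysis was possible because each stage is a single library.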
